A study of Mus musculus with 4 samples.

Results

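Tubulins are the building blocks of microtubules. An alpha and a beta subunit fold with the help of prefoldin, the chaperonin CCT and the tubulin cofactors, and join into the heterodimer that polymerises. Mammals carry several genes for each subunit, called isotypes, whose proteins differ mostly in their tails. Dividing germ cells need microtubules for the spindle, and tubulin synthesis is itself controlled on the ribosome, where TTC5 recognises nascent tubulin and recruits the CCR4-NOT deadenylase to its mRNA. The 10 tubulin genes described here were found in the authors' deposited table by gene symbol, from a fixed list, out of 22396 named genes. They are 4 alpha genes (Tuba1a, Tuba1b, Tuba1c and Tuba4a) and 6 beta genes (Tubb2a, Tubb2b, Tubb3, Tubb4b, Tubb5 and Tubb6), and all 10 had enough reads to carry an adjusted p.

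The values are ribosome-protected fragments (footprints) from mouse testis cells sorted for the surface marker THY1. By the labels and the design text, 2 samples are Ddx20 knockouts and 2 are controls from the same litters. The sources used here do not give the age of the mice, the way Ddx20 was deleted or whether samples of a genotype came from separate animals, so p-values measure only the spread between these samples, which may be technical. DDX20 is an RNA helicase of the SMN complex, which assembles spliceosomal particles. In such bulk samples fewer cells of a type and less RNA per cell cannot be told apart, and without matched RNA sequencing neither can translation and transcript level.

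The deposited table holds 1 comparison and no column per sample. Whole reads of 4 libraries could be recovered from its means, but no library could be tied to a genotype. Libraries C and D are those on the side of positive fold changes and held 282722 and 221439 reads. Libraries A and B, on the side of negative fold changes, held 941014 and 789570 reads. Below, rose means higher in C and D past an adjusted p of 0.05, and fell means lower there past it. Reading the sides in the opposite sense would turn every direction. The difference between A and B was within sampling noise (chi-square per degree of freedom 0.983 over 10193 genes, p = 0.889), whereas that between C and D was not (1.09 over 10924 genes, p = 1.96e-11), and an alternative therefore treats A and B as 1 sample. Ddx20 had 32 and 30 reads in libraries C and D, against 287 and 244 in A and B, and its log2 fold change in the authors' deposited table was -1.83 (SE 0.243, adjusted p = 4.07e-13). Thy1 had 1 and 3 reads in libraries C and D, against 18 and 15 in A and B (-1.05, adjusted p = 0.156 in the authors' deposited table). With limma on recovered reads and the authors' size factors, Thy1 passed as lower in C and D (-1.68, adjusted p = 0.00829).

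The sides also differed outside the tubulins. Counts of markers that fell or rose stand beside 18.8% of all tested genes that fell and 26.9% that rose in the authors' deposited table. Olfactory and vomeronasal receptor genes took 0.806% and 0.899% of reads in libraries C and D, against 0.00457% and 0.00469% in A and B. All 15 measured pan germ cell markers had reads on both sides, and their summed level was 1726 and 1599 CPM (reads scaled to the same total in each library) in C and D, against 6930 and 7242 CPM in A and B. Of them, 13 fell in the authors' deposited table. The 13 spermatogonia markers summed to 1878 and 1567 CPM in C and D, against 3339 and 3276 CPM in A and B, with 11 that fell. The 8 stroma and fibroblast markers summed to 2985 and 3021 CPM in C and D, against 1492 and 1469 CPM in A and B, with 2 that fell and 3 that rose. The 7 peritubular myoid and smooth muscle markers summed to 509 and 524 CPM in C and D, against 133 and 93.7 CPM in A and B, with 5 that rose and 0 that fell. The 8 macrophage markers summed to 559 and 555 CPM in C and D, against 324 and 320 CPM in A and B, with 1 that fell and 2 that rose. The 7 endothelial markers summed to 287 and 289 CPM in C and D, against 134 and 123 CPM in A and B, with 2 that rose and 0 that fell. The 8 Leydig markers summed to 177 and 208 CPM in C and D, against 99.9 and 94.99 CPM in A and B, and no marker of the list passed. The 6 erythroid markers summed to 35.4 and 18.1 CPM in C and D, against 2.13 and 1.27 CPM in A and B, from 10 and 4 reads in C and D and 2 and 1 in A and B, and none passed. In CPM, 62.7% of tested genes were higher in both C and D than in both A and B, and 22.3% were lower in both. With library totals the median log2 fold change of all fitted genes was 0.91 (limma). A higher CPM in C and D was therefore common to most genes. The part of the receptor and marker shifts in the tubulin values was not tested.

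A fall passed for 2 of the 10 tubulin genes and a rise for 2 in the authors' deposited table, and 6 genes missed the threshold. Tubb5 and Tubb4b fell, and Tubb6 and Tubb3 rose. Over all 17347 tested genes of the authors' deposited table, 18.8% fell and 26.9% rose, so 2 falls and 2 rises among 10 genes lie close to the background. The median log2 fold change of the 10 was -0.14, against 0.38 over all tested genes of the authors' deposited table. With library totals (limma) it turned sign, at 0.38 for the 9 fitted tubulins, against 0.91 over all fitted genes. That limma median is the value of Tuba1b, which had 23 reads in all. The deposited median lies between the values of Tuba1a, with 8 reads in all, and Tuba1b. The change of sign therefore rests on genes with few reads and does not describe the tubulins as a set. The 10 ranged from -1.97 for Tubb4b to 1.54 for Tubb3. The sources used here do not say whether the deposited fold changes were shrunken. Deposited p-values do not all follow from the printed fold change and its SE. For Tubal3, a tubulin gene not among the 10, a fold change of 0.71 (SE 1.41) stands beside a deposited p of 0.0185. The printed fold changes may therefore not be plain ratios of reads, unlike those from limma. Genes with a single read, in library C, had a median log2 fold change of 0.1152 in the authors' deposited table, so a deposited value near 0 for a tubulin with few reads says little about its ratio.

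**Figure D1:**
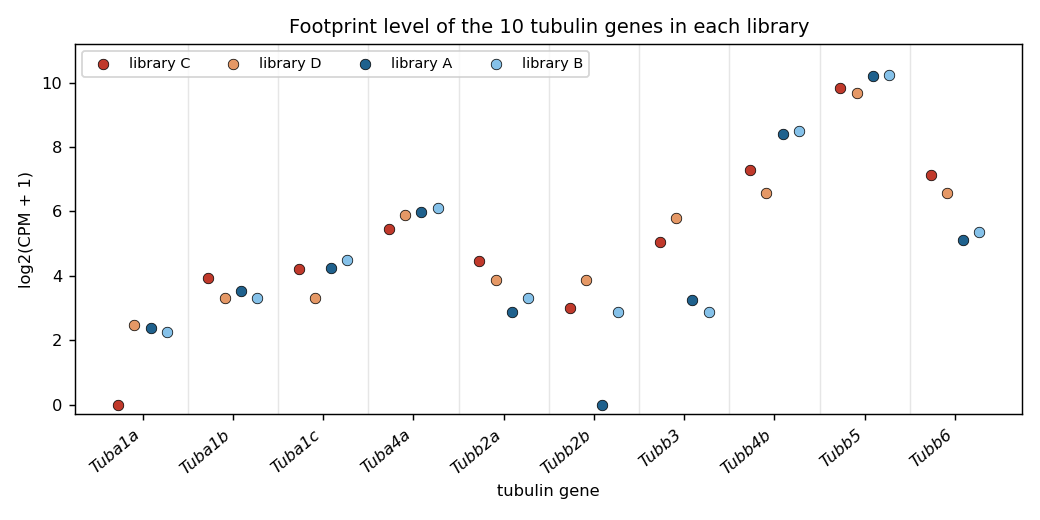
Level of each of the 10 tubulin genes as log2(CPM + 1), 1 point per library, with libraries C and D left of A and B for each gene. Tubb3 and Tubb6 lie higher in both C and D, Tubb4b and Tubb5 lower in both, and Tuba1a and Tuba1b overlap.

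Direction in this comparison went with the level of a gene, so each tubulin was set beside a bin of genes by mean. The highest bin is wide, with means of 27.2 to 1017. With the tested genes in 4 equal bins by deposited mean, 61.2% of the highest bin fell and 11.7% rose. Its median was -1.05 in the authors' deposited table, as a log2 fold change. In the 2 lowest bins together 33.5% rose, with medians of 0.62 and 1.28. Tubb5, Tubb4b, Tubb6 and Tuba4a were in the highest bin and the other 6 tubulins in the 2 lowest. Scaled to library totals, the CPM of both C and D was below that of both A and B for 4 of the 10 tubulins, against 22.3% of tested genes, and above it for 4, against 62.7%. The other two, Tuba1a and Tuba1b, overlapped.

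**Figure D2:**
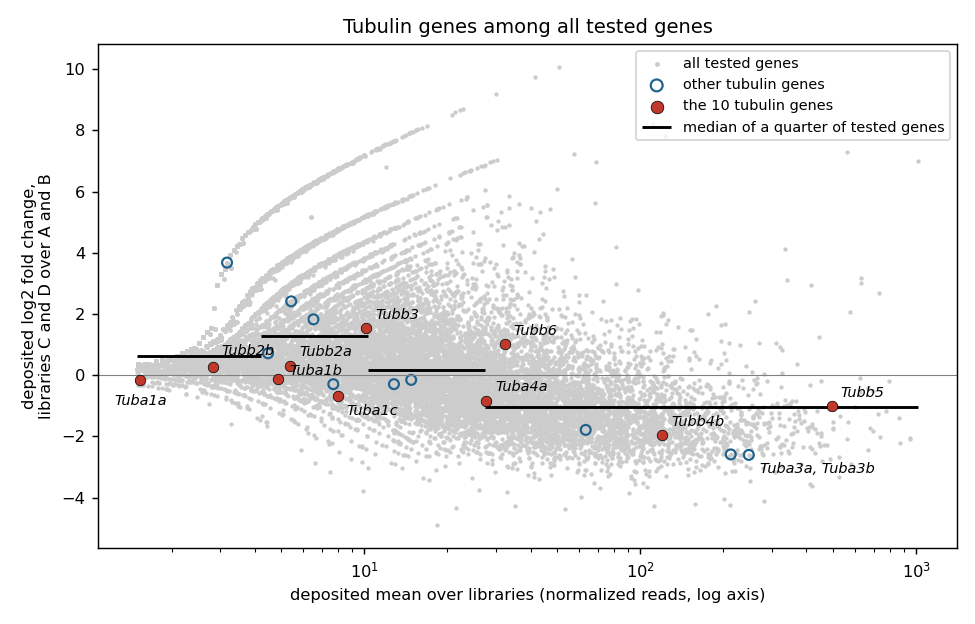
Deposited log2 fold change (libraries C and D over A and B) against the deposited mean on a log axis for the 17347 tested genes, with the 10 tubulins filled, the other tubulin genes as rings and black lines for the median of each of 4 equal bins by mean. Tubb5 lies close to the median of its bin (-1.05), Tubb4b below it and Tubb6 above it.

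The promoters of 3 of the 4 beta genes that passed are shown, since these genes moved in opposite directions. RefSeq's promoter table for GRCm38.p6, the assembly that mm10 is based on, held entries for 8 of the 10 genes. Tubb2b and Tubb6 had none, so of the genes that rose only Tubb3 is shown. Each line gives the 250 bases before the annotated start, 5′ to 3′ on the gene's strand. Capitals mark matches on either strand to 4 short motifs. They are the CCAAT box, the TATA box searched as TATAAA, the GC box searched as GGGCGG, and the letters TTTGAA. No matches overlapped. Tubb5 lies on the minus strand at chr17:35838302-35838551, Tubb4b on the minus strand at chr2:25224703-25224952 and Tubb3 on the plus strand at chr8:123411303-123411552.
Tubb5: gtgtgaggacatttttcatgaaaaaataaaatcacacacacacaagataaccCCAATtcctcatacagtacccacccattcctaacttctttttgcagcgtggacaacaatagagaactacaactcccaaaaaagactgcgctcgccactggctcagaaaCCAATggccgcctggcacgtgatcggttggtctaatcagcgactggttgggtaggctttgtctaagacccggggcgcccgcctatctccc
Tubb4b: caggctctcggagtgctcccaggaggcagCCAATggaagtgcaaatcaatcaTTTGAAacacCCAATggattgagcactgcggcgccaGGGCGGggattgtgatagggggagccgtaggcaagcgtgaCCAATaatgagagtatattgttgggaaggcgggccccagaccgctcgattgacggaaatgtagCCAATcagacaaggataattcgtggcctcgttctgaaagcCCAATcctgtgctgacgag
Tubb3: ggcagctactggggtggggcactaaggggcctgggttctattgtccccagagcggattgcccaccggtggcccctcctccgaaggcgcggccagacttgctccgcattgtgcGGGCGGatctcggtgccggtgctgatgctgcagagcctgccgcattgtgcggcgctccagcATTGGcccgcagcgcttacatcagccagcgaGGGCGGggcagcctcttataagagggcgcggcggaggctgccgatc

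The window of Tubb4b held 5 matches to CCAAT, that of Tubb5 held 2 and that of Tubb3 held 1, which is on the other strand and so reads ATTGG. Among all 32851 promoters of the table, 33.8% held at least 1 such match and 0.213% at least 5. GGGCGG matched once in Tubb4b, 2 times in Tubb3 and not in Tubb5, and was in 32.7% of all promoters. TTTGAA matched in Tubb4b only of these 3, against 16.0% of all promoters, and TATAAA in none of the 3, against 12.4%. Of the 8 tubulin promoters, 5 held CCAAT, 6 GGGCGG, 1 TTTGAA and 1 TATAAA, the last being Tubb2a. A match is a description of these letters and not a site.

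Tubb5 encodes the main beta-tubulin of dividing cells and carried most of the reads on the beta genes. The gene lies at chr17:35833920-35838301 (GRCm38.p6). It had 259 and 181 reads in libraries C and D, or 916 and 817 CPM, against 1120 and 951 reads, or 1190 and 1204 CPM, in A and B. Both C and D lay below both A and B. The log2 fold change in the authors' deposited table was -1.01 (SE 0.124, adjusted p = 9.53e-15), and limma on recovered reads, with size factors as the authors had them, gave -1.01 as well. Scaled to library totals, the fall was smaller (limma, -0.46, adjusted p = 3.58e-05). In its bin by mean, 51.6% of genes had a lower fold change in the authors' deposited table. Tubb5, with a mean of 494, stood in the middle of that bin, whose means ran from 27.2 to 1017. Its place among genes nearer to its own mean was not tested.

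Tubb4b, a widely expressed beta isotype that is also part of cilia and flagella, fell as well. The gene lies at chr2:25222158-25224702. It had 44 and 21 reads in libraries C and D, or 156 and 94.8 CPM, against 321 and 283 reads, or 341 and 358 CPM, in A and B. The sides did not overlap, and library C was the higher of the low pair. The authors' deposited table gave a log2 fold change of -1.97 (SE 0.239, adjusted p = 2.23e-15), and 17.4% of its bin had a lower one. The difference between the fold changes of Tubb4b and Tubb5 was not tested.

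Tubb6, the class V beta-tubulin, rose. It had 39 and 21 reads in libraries C and D, or 138 and 94.8 CPM, against 32 reads each, or 34.0 and 40.5 CPM, in A and B. In CPM the lowest of C and D stood above the highest of A and B. The log2 fold change was 1.01 (SE 0.384, adjusted p = 0.0136) in the authors' deposited table, and 8.60% of genes in its bin had a higher one. With a mean of 32.2, Tubb6 stood near the lower edge of that bin, whose means ran from 27.2 to 1017. In the next bin down the median was 0.16 and 28.7% rose. The place of Tubb6 among genes nearer to its own mean was not tested.

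Tubb3, the class III beta-tubulin known from neurons and, outside them, from Sertoli cells, rose as well, from few reads. The gene lies at chr8:123411553-123422015. It had 9 and 12 reads in libraries C and D, or 31.8 and 54.2 CPM, against 8 and 5 reads, or 8.50 and 6.33 CPM, in A and B. Its log2 fold change in the authors' deposited table was 1.54 (SE 0.778, adjusted p = 0.0290), with 46.0% of its bin higher. All 10 neuron and Schwann cell markers had reads, and their sum was 375 and 524 CPM in libraries C and D, against 384 and 386 CPM in A and B. Of these markers 4 rose and 1 fell in the authors' deposited table, and 1, Rbfox3, was at 0 in A and B. All 15 Sertoli markers had reads too, summing to 516 and 646 CPM in C and D, against 548 and 532 CPM in A and B. Of them 3 rose and 3 fell in the authors' deposited table, and 1, Gata1, was at 0 in A and B. The part of either cell type in the rise of Tubb3 was not tested.

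Tubb2a (chr13:34074278-34078008) and Tubb2b (chr13:34127008-34130354), beta genes best known from brain, did not pass. Tubb2a had 6 and 3 reads in libraries C and D, against 6 and 7 in A and B (log2 fold change 0.31, adjusted p = 0.626 in the authors' deposited table). Tubb2b had 2 and 3 reads in C and D, against 0 and 5 in A and B (0.26, adjusted p = 0.624 in the authors' deposited table). Such reads cannot settle a direction for either gene. With limma and the authors' size factors Tubb2b passed (2.07, adjusted p = 0.0172) on 10 reads in all, and not with libraries A and B summed into 1 sample (limma, adjusted p = 0.105) or without library A (limma, 0.16, adjusted p = 0.859). Reads of both genes also stand under the reservation on near-identical copies given for the alpha genes below.

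**Figure D3:**
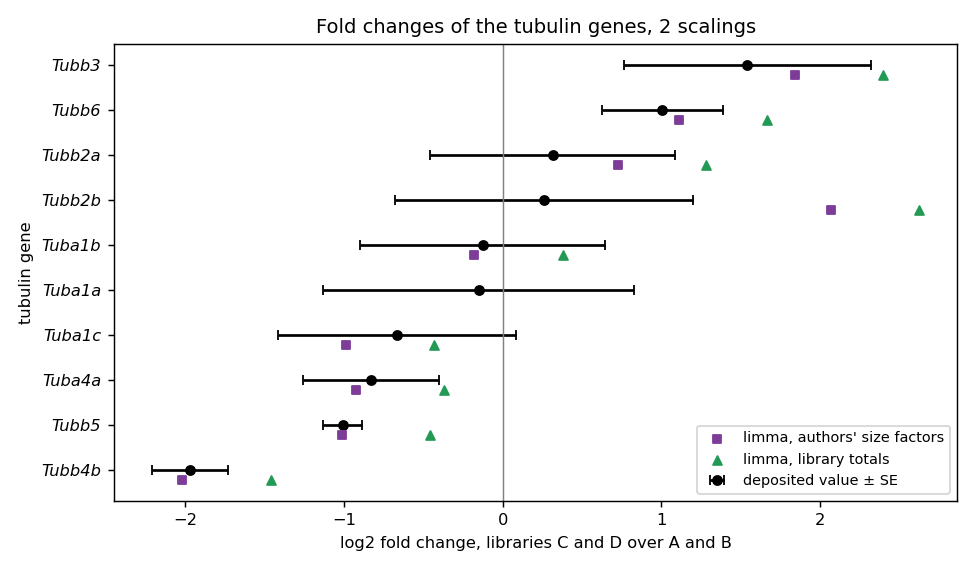
Log2 fold changes of the 10 tubulins, libraries C and D over A and B, from the authors' deposited table (points, with bars of 1 SE) and from limma on recovered reads, scaled by the authors' size factors (squares) or library totals (triangles). Tuba1a, with 8 reads in all, was not fitted by limma and has a point only. Tubb3 and Tubb6 are above 0 and Tubb5 and Tubb4b below 0 under both scalings, whereas Tuba1b changes sign with the scaling.

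None of the 4 alpha members passed the threshold in the authors' deposited table. Tuba4a, an isotype whose gene does not encode the usual final tyrosine, had the most reads of them. The gene lies at chr1:75214972-75221261. It had 12 and 13 reads in libraries C and D, or 42.4 and 58.7 CPM, against 59 and 54 reads, or 62.7 and 68.4 CPM, in A and B. Its log2 fold change of -0.83 in the authors' deposited table missed the threshold (SE 0.427, adjusted p = 0.0673). It passed with limma and the authors' size factors (-0.92, adjusted p = 0.00852), and missed it with library totals (limma, -0.37, adjusted p = 0.297), without library B (limma, -0.84, adjusted p = 0.0539) and without library C (limma, -0.67, adjusted p = 0.166).

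Tuba1a (chr15:98949847-98953501), Tuba1b (chr15:98931429-98934390) and Tuba1c (chr15:99029891-99038105) encode nearly identical proteins, Tuba1a being known from neurons and Tuba1b and Tuba1c from many tissues. Tuba1c had 5 and 2 reads in libraries C and D, against 17 in each of A and B (log2 fold change -0.67, adjusted p = 0.308 in the authors' deposited table). Tuba1b had 4 and 2 reads in C and D, against 10 and 7 in A and B (-0.13, adjusted p = 0.850 in the authors' deposited table). Tuba1a had 0 and 1 read in C and D, against 4 and 3 in A and B (-0.15, adjusted p = 0.688 in the authors' deposited table). The 3 genes together had 9 and 5 reads in C and D, against 31 and 27 in A and B. None of the 3 passed in that table, and the SE of their deposited log2 fold changes was 0.749 to 0.983. Fragments of 26 to 34 nucleotides from such alike coding sequences can match several genes, and the sources used here do not say how the authors counted those reads. The low reads of the Tuba1 genes, and any division of reads between close copies, are therefore uncertain as measures of each gene.

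Most alpha-tubulin reads in the table belonged to Tuba3a and Tuba3b, which are not among the 10 and which in the mouse encode an alpha-tubulin known from testis. Tuba3a had 48 and 44 reads in libraries C and D, or 170 and 199 CPM, against 717 and 613 reads, or 762 and 776 CPM, in A and B. Tuba3b had 45 and 35 reads in C and D, against 609 and 533 in A and B. Both fell in the authors' deposited table, with log2 fold changes of -2.61 (SE 0.192, adjusted p = 2.26e-40) and -2.59 (SE 0.204, adjusted p = 2.20e-35). These 2 genes are themselves close copies, so their reads are open to the same uncertainty, while their sum is less so.

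The other 8 tubulin genes had fewer reads. Tuba8, a divergent alpha isotype, had 6 and 7 reads in libraries C and D, against 2 and 1 in A and B, and rose (log2 fold change 2.41, adjusted p = 0.0229 in the authors' deposited table). Tubb4a, known from brain, had 13 and 3 reads in C and D, against 4 and 2 in A and B, and rose (1.82, adjusted p = 0.0382 in the authors' deposited table). Tubb1, the beta-tubulin of platelets, had 7 and 2 reads in C and D and 0 in A and B, which makes it at least 10.3-fold higher in CPM against a floor of 3 reads over A and B together. Tubal3 had 2 and 9 reads in C and D and 0 in A and B, at least 12.6-fold higher by the same floor. The floor leaves counting error in C and D aside. Both passed in the authors' deposited table (adjusted p = 0.0184 and 0.0422). Their log2 fold changes there were 3.68 (SE 3.54) for Tubb1 and only 0.71 (SE 1.41) for Tubal3. With no reads in A and B, Tubb1 and Tubal3 could have been tested only through their reads in C and D.

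The gamma-tubulin gene Tubg1, whose protein nucleates microtubules, had 23 and 14 reads in C and D, against 171 and 141 in A and B, and fell (log2 fold change -1.79, SE 0.315, adjusted p = 5.92e-08 in the authors' deposited table). Tubg2, Tubd1 and Tube1 missed the threshold in the authors' deposited table (-0.16, -0.29 and -0.29). Together, 3 of the 10 other tubulin genes fell and 4 rose (median -0.22 in the authors' deposited table), against 18.8% and 26.9% of all tested genes. All 3 in the highest bin fell, against 61.2% of that bin, and 4 of the 5 in the 2 lowest bins rose, against 33.5%. Of the 4 that rose, 2 had no read in A and B.

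Shares of reads within a library do not depend on the size factors. The 10 tubulins took 0.134% of reads in library C (95% Wilson interval 0.122 to 0.149) and 0.117% in D (0.104 to 0.132), against 0.168% in A (0.160 to 0.176) and 0.173% in B (0.164 to 0.182). The intervals of C and D lay below those of A and B, and the pooled share of C and D was 0.746 times that of A and B. All such intervals cover counting error only.

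Among reads on the 6 beta members, the intervals for Tubb5 overlapped in all libraries, and those for Tubb4b, Tubb6 and Tubb3 separated the sides. Tubb5 held 72.1% in library C (95% Wilson interval 67.3 to 76.5) and 75.1% in D (69.3 to 80.1), against 75.3% in A (73.1 to 77.4) and 74.1% in B (71.7 to 76.4). Tubb4b held 12.3% in C (9.26 to 16.1) and 8.71% in D (5.77 to 13.0), against 21.6% in A (19.6 to 23.8) and 22.1% in B (19.9 to 24.4). Tubb6 held 10.9% in C (8.05 to 14.5) and 8.71% in D (5.77 to 13.0), against 2.15% in A (1.53 to 3.02) and 2.49% in B (1.77 to 3.50). Tubb3 held 2.51% in C (1.32 to 4.70) and 4.98% in D (2.87 to 8.50), against 0.538% in A (0.273 to 1.06) and 0.3897% in B (0.167 to 0.909). For Tubb4b, Tubb6 and Tubb3 the intervals of C and D did not meet those of A and B. With Tubb1 and Tubb4a added to the beta reads, Tubb5 held 68.3% in C (63.5 to 72.8) and 73.6% in D (67.7 to 78.7), against 75.1% in A (72.9 to 77.2) and 74.0% in B (71.5 to 76.3), so that the interval of C no longer met that of A. These are shares of reads, not corrected for length.

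**Figure D4:**
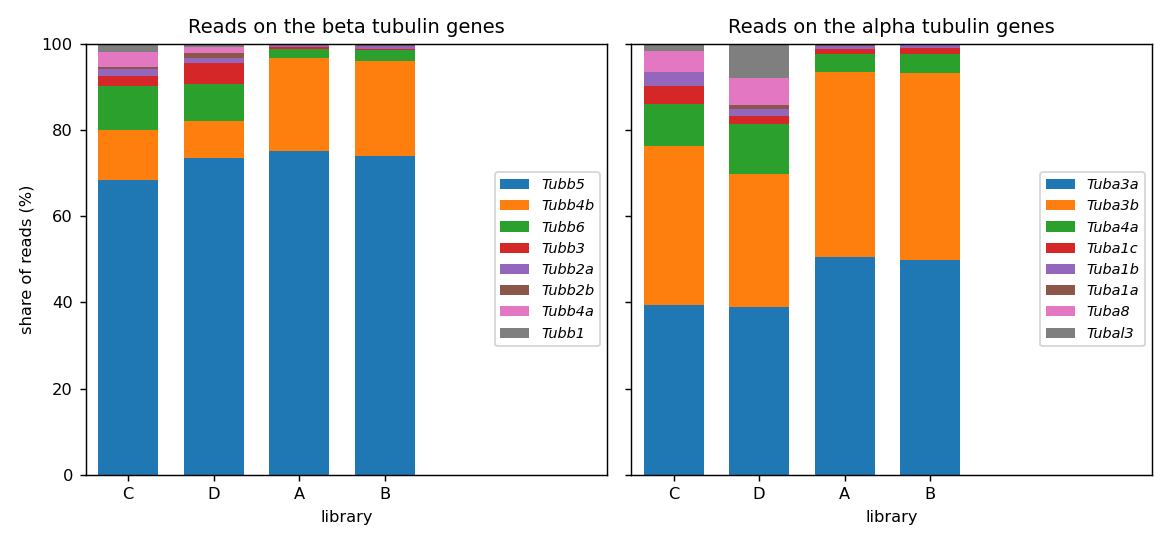
Share of reads (%) on each beta tubulin gene (left panel) and each alpha tubulin gene (right panel), in libraries C, D, A and B from left to right, with Tubb1 and Tubb4a counted here among the beta genes. Tubb5 takes most of the beta reads in every library, Tubb4b a smaller and Tubb6 a larger one in C and D, and Tuba3a and Tuba3b make up most of the alpha reads.

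Among reads on all 8 alpha genes, Tuba3a and Tuba3b together held 76.2% in library C (95% Wilson interval 67.9 to 82.9) and 69.9% in D (60.9 to 77.6), against 93.5% in A (92.1 to 94.7) and 93.3% in B (91.8 to 94.6). Tuba4a held 9.84% in C (5.72 to 16.4) and 11.5% in D (6.85 to 18.7), against 4.16% in A (3.24 to 5.33) and 4.397% in B (3.39 to 5.69). The Tuba1 genes held 7.38% in C (3.93 to 13.4) and 4.42% in D (1.90 to 9.94), against 2.19% in A (1.54 to 3.09) and 2.20% in B (1.52 to 3.18), and for D the interval met those of A and B. Of all reads on alpha and beta genes, the alpha genes held 24.4% in C (20.8 to 28.3) and 31.5% in D (26.9 to 36.5), against 48.7% in A (46.9 to 50.6) and 48.9% in B (46.9 to 50.8). Tuba3a and Tuba3b, which are not among the 10, made up most of these alpha reads. Among reads on the 10 members alone, the alpha share was 5.53% in C (3.64 to 8.30) and 6.95% in D (4.44 to 10.7), against 5.71% in A (4.67 to 6.96) and 5.94% in B (4.804 to 7.32), and all intervals overlapped.

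The counts for gene lists below stand beside 18.8% of all tested genes that fell and 26.9% that rose, and, since direction went with level, beside the bins by mean. Among 9 tested chaperonin CCT genes 8 fell and 0 rose (median log2 fold change -2.07 in the authors' deposited table), among them the subunits Cct8 (-2.74), Cct6a (-2.35), Tcp1 (-2.31) and Cct5 (-2.13). All 8 were in the highest bin by mean, where 61.2% of genes fell. The member that did not pass was Pdcl3, a co-chaperone of CCT. Cct8 had 93 and 75 reads in libraries C and D, against 1416 and 1222 in A and B. Among 6 prefoldin genes 4 fell and 0 rose (median -1.41 in the authors' deposited table), namely Pfdn2 (-2.86), Pfdn6 (-2.23), Pfdn5 (-1.53) and Vbp1 (-0.83). Of its 4 genes in the highest bin, 3 fell. Among 8 tubulin cofactor genes 2 fell and 0 rose (median -0.40 in the authors' deposited table). They were Tbcb (-2.66), which binds alpha-tubulin, and Tbce (-1.39), and 3 of the 8 genes were in the highest bin. Tbcb had 11 and 6 reads in C and D, against 139 and 129 in A and B.

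Among 12 genes linked to the decay of tubulin mRNA on the ribosome, 9 fell and 0 rose (median -1.40 in the authors' deposited table). They included the CCR4-NOT scaffold Cnot1 (-1.24), Cnot10 (-1.57), Cnot9 (-2.65) and Scaper (-1.56), which links TTC5 to that complex. The list is made up mostly of general deadenylase subunits. All 8 genes of the list in the highest bin fell, against 61.2% of that bin.

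Among 13 genes of the gamma-tubulin ring complex and its anchors 5 fell and 0 rose (median -0.50 in the authors' deposited table). The ring subunits Tubgcp5 (-1.92) and Tubgcp3 (-1.21), the targeting factor Nedd1 (-1.45) and the centrosomal protein gene Cep192 (-1.17) were among them. Of the 9 ring complex genes in the highest bin 4 fell, against 61.2% of that bin. Among 8 augmin genes, whose complex branches spindle microtubules, 6 fell and 0 rose (median -1.57 in the authors' deposited table), led by Haus1 (-2.34), Haus3 (-2.13), Haus4 (-1.81) and Haus7 (-1.91). All 5 augmin genes in the highest bin fell. Among 22 dynein and dynactin genes, which carry cargo along microtubules, 12 fell and 1 rose (median -1.03 in the authors' deposited table). Pafah1b1 (-2.80), Dctn4 (-1.71), Actr10 (-2.15) and Dync1i2 (-1.56) were among those that fell, and Dync1i1 rose (1.48). Of the 16 in the highest bin 11 fell, a share near the 61.2% of that bin, and the list's median was close to the bin's median of -1.05.

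Proteins that bind microtubules were split. Among 32 plus-end, polymerase and stabilising genes 10 fell and 6 rose (median 0.26 in the authors' deposited table). The plus-end protein gene Mapre1 (-2.82) and the spindle genes Prc1 (-2.45), Tpx2 (-2.05) and Ckap2 (-2.68) fell. Of the 23 in the highest bin 10 fell, a smaller share than the 61.2% of that bin. The 6 rises became 11 with limma and the authors' size factors and 17 with library totals. Over all 14470 fitted genes, limma called 5912 rises with those size factors and 7270 with library totals, so rises grew in number generally. Among 13 tested severing and destabilising genes 4 fell and 0 rose (median -0.15 in the authors' deposited table). They were the depolymerising kinesins Kif2c (-2.01) and Kif2a (-1.80), Fignl1 (-2.47) and the katanin subunit Katna1 (-1.40). All 4 severing and destabilising genes in the highest bin fell. With limma 4 genes of the list rose, both with the authors' size factors and with library totals. These counts stand beside the same 5912 and 7270 rises over all fitted genes.

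Among 27 tested genes for enzymes that modify tubulin, 1 fell and 13 rose (median 1.14 in the authors' deposited table). The deacetylase Hdac6 fell (-1.93), with 59 and 43 reads in libraries C and D, against 514 and 407 in A and B. The glycylase gene Ttll3 rose (2.88), with 22 and 16 reads in C and D, against 4 and 6 in A and B. Ttll10 had 17 and 9 reads in C and D and 0 in A and B (at least 29.7-fold higher in CPM by the floor above). Ttll6 had 11 and 13 reads in C and D and 0 in A and B (at least 27.5-fold higher). Both genes could have been tested only through their reads in C and D. Of the 14 genes of the list in the 2 lowest bins by mean 10 rose, against 33.5% of those bins. Of the 13 risers, 5 had no read in A and B and so could have been tested only through C and D. The olfactory and vomeronasal receptor shares given above were also higher in C and D, and whether they and these rises are linked was not tested.

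**Figure D5:**
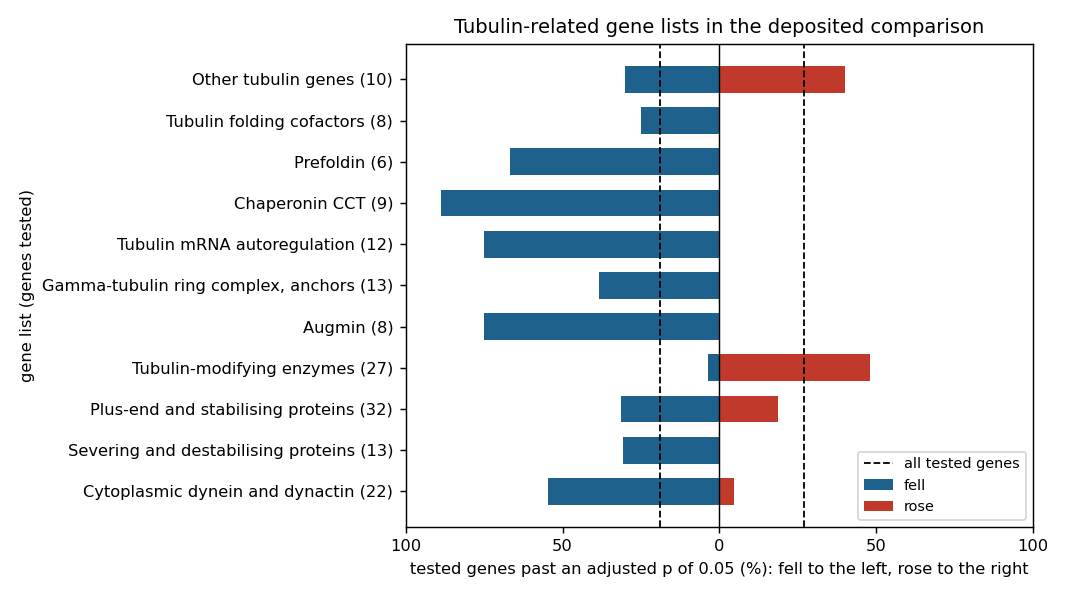
Percent of tested genes on each of 11 tubulin-related lists that fell (to the left) or rose (to the right) past an adjusted p of 0.05 in the authors' deposited table, with the number tested in brackets and dashed lines at the values of all tested genes (18.8% and 26.9%). Chaperonin, prefoldin, autoregulation and augmin genes extend furthest to the left, and tubulin-modifying enzymes furthest to the right.

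With limma on recovered reads, scaled by the authors' size factors, 3 of the 9 tubulins with at least 10 reads fell and 3 rose, against 28.8% and 40.9% of 14470 genes. Those that fell were Tubb5, Tubb4b and Tuba4a, and those that rose were Tubb6, Tubb3 and Tubb2b. Libraries A and B were also counted as 1 sample, which leaves the spread to C and D alone. The limma log2 fold changes were then -1.01 for Tubb5, -2.02 for Tubb4b and -0.91 for Tuba4a. For Tubb6, Tubb3 and Tubb2b they were 1.11, 1.90 and 1.31. Scaling to library totals moved the median of all genes up by 0.55 on the log2 scale, and under it limma called Tubb5 and Tubb4b lower and Tubb6, Tubb3, Tubb2a and Tubb2b higher in C and D. Of all 14470 genes, limma called 2742 lower and 7270 higher under that scaling. Over the 4 libraries, the genes whose centred log2(CPM + 1) profile lay nearest to that of the summed tubulin reads, of 13305 genes with at least 10 CPM on average, were Npc1 (Euclidean distance 0.0212), Son (0.0310) and Cited2 (0.0318). Most of the summed reads were those of Tubb5, with 2511, against 669 for Tubb4b, 124 for Tubb6 and 34 for Tubb3. The likeness is therefore mainly to Tubb5.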

How the data were processed

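Ribosome footprints of 26 to 34 nt came from about 1000 cells a sample, per the labels' protocols. The submitters' processing notes name Trimmomatic 0.39, STAR 2.7.5c, StringTie 2.1.7, DESeq2, edgeR and the mm10 build, with no role given. The authors deposited 1 table of 22397 rows, of which 1 names no gene and holds 0.00475% of the summed means. Per the file headers it holds a mean signal per gene over the libraries, a log2 fold change with its SE, and a p-value with an adjusted p-value. The sources used here give neither the step that made each nor the treatment of reads that match several genes.

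A deposited mean equals a sum of whole reads, each weighted by the inverse size factor of its library. Solving this gave 1 solution for 20512 of 20515 rows with reads (relative tolerance 8e-15), and for 0 of 500 values moved on purpose. Totals were 221439 to 941014 reads a library, so low genes have wide counting error. The solver and the limma script were tested on simulated data first. The count test planned for count tables was not used, as the file holds no counts, and the authors' own comparison was the main result. limma 3.58.1 (voom, Benjamini-Hochberg adjustment) on recovered reads was the alternative, with a minimum of 10 reads over the libraries. It was repeated with library totals or upper-quartile factors, a minimum of 50 reads or none, libraries A and B summed, and each library left out. R 4.3.3, Python 3.11.15 and pandas 2.3.3 were used.

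The genes, lists and tests were chosen with earlier results of these data known. Named were all tubulin genes, Ddx20, Thy1, up to 4 genes of each of 11 lists by smallest deposited p among those past 0.05, and 3 genes most like the summed tubulins. Genes named as exceptions on a list (Pdcl3 and Dync1i1) were chosen after their values were seen. The 10 marker lists were described by their sums. All 10 tubulins and 259 of 261 listed entries matched the RefSeq gene table of GRCm38.p6. Intervals are Wilson 95%.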

Additional observations from a re-analysis of the deposited data

How the results depend on the processing

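Tubb5, Tubb4b, Tubb6 and Tubb3 kept their direction and passed in every alternative that tested them, Tubb3 being untested at a minimum of 50 reads. Of 83 values of single tubulins under the alternatives, 12 newly passed, on Tuba4a, Tubb2a or Tubb2b, and 3 turned sign, on Tuba1b, which was 0.38 with library totals, 0.37 with upper-quartile factors and between -0.44 and 0.063 with each library left out. Tubulins that fell numbered 2 or 3 throughout. Those that rose numbered 4 with library totals, 4 with upper-quartile factors and 1 at a minimum of 50 reads, where only 4 were tested. The median log2 fold change was -0.18 with limma and the authors' size factors, 0.38 with library totals, 0.37 with upper-quartile factors, -0.97 at 50 reads, -0.55 with no filter and -0.56 to -0.055 with each library left out. Different sets of tubulins enter these medians. With the authors' size factors, library totals or upper-quartile factors, the limma median was the value of Tuba1b, which had 23 reads in all. The share of Tubb5 in beta reads differed by -1.43 percentage points (C and D minus A and B), and by -2.62 to 0.34 with each library left out, turning sign without library C. Over all genes, limma called 5912 rises at a minimum of 10 reads, against 11261 with no filter and 1547 at 50 reads, and the authors' deposited table has 4663. At that minimum of 10 reads, library totals gave 7270 rises and upper-quartile factors 7267. Across alternatives, rises numbered 3 to 21 among tubulin-modifying enzymes, 7 to 17 among plus-end and stabilising genes, 0 to 5 among severing genes, 0 to 3 among dynein genes, 0 to 2 among cofactors and 0 to 4 among other tubulins. Gamma-tubulin ring genes had 4 to 8 falls and 0 to 3 rises, and tubulin-modifying enzymes 1 or 2 falls. The cause of these changes was not tested. With a library left out, or A and B summed, the lone sample of a side is assumed to vary like the other side. Few reads limit the precision of the 6 tubulins with under 50 in all. No paired analysis was possible because the deposited table has no column per sample and the recovered libraries carry no replicate number.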
